A study of Mus musculus with 2 samples.

Results

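Elf5, Esrrb, Ets2, Nr0b1, Tead4 and Tfap2a are transcription factors linked to the trophoblast stem cell state, the self-renewing precursor of the placenta. All 6 were found by symbol among the 32285 genes of a mouse data set, together with the 156 of 229480 accessibility peaks that lay within 50 kb of their transcription starts. Nuclear RNA and open chromatin had been measured in the same nuclei (a single-nucleus multiome), with 1 library per assay. Embryos at E7.0 (embryonic day 7.0) were pooled and dissociated before nuclei were isolated, and no barcode could be traced to an embryo. No treatment or second time point was given, and no genotype beyond the strain name quoted next, so every group below is a class of nuclei within that pool.

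The labels did not agree among themselves: embryos were named by title, age and protocol, but the fields for tissue, source, cell type and strain gave small intestine, distal colon, goblet cells and RedMUC298trTg. A list of 8 goblet and intestinal epithelium markers summed to 7.87, 8.45 and 7.85 CPM (UMI counts as a scaled share of all counts of a class) in the ExE-like, EPC-like and embryonic nuclei defined below, and Vil1, a microvillus protein, carried 7.32, 7.73 and 6.89 CPM of it. Muc2, the secreted mucin that defines goblet cells, was at 0.0558, 0.242 and 0.13 CPM. The nuclei were therefore read as embryonic material.

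At E7.0 the trophoblast consists of the extraembryonic ectoderm (ExE), which abuts the epiblast and holds the stem cell pool, and the ectoplacental cone (EPC), where trophoblast differentiates towards spongiotrophoblast and giant cells. FGF4 from the epiblast acts through FGFR2 and ERK in the ExE, and Cdx2, Eomes and Elf5 reinforce one another there. Elf5 is an ETS-family factor whose silencing by DNA methylation in the embryonic lineage helps to fix the lineage boundary. Esrrb is an orphan nuclear receptor that acts downstream of FGF signalling in trophoblast stem cells, and Nr0b1 (DAX1) is an orphan receptor that lacks a classical DNA-binding domain. Ets2 is an ETS factor phosphorylated by ERK, Tead4 is the DNA-binding partner of the Hippo effector YAP, and Tfap2a is an AP-2 factor known in surface ectoderm and neural crest.

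After filtering, 12796 of 15341 barcodes (83.4%) were kept, with medians of 10471 RNA molecules (UMIs) and 17350 peak counts. To keep the classes apart from the values read, RNA was summed over nuclei classed by accessibility and accessibility over nuclei classed by RNA, and the clustering left out the 6 genes and the peaks around them. Names in both assays came from the RNA of marker lists without the 6 genes, so the accessibility classes were not independent of RNA. By accessibility there were 1309 ExE-like, 297 EPC-like and 7142 embryonic nuclei, the last pooling epiblast, primitive streak, embryonic mesoderm and anterior streak classes. By RNA there were 1150, 412 and 6874. Of the ExE-like nuclei by accessibility, 85.3% were ExE-like and 9.93% EPC-like by RNA, and 92.6% of the EPC-like nuclei kept their name. Of the 412 EPC-like nuclei by RNA, over which EPC accessibility was summed, 66.7% were EPC-like and 31.6% ExE-like by accessibility. These 412 nuclei formed 1 RNA cluster, whose mean log2 fold over other nuclei was 1.83 for ExE markers and 1.75 for EPC markers. It took the EPC name because 3 EPC markers and 0 ExE markers stood among its 10 leading genes. The 8 ExE markers summed to 2666 CPM in ExE-like nuclei, 1964 in EPC-like and 214 in embryonic nuclei, and the 11 EPC markers to 135, 891 and 178 CPM. Both lists were used to name the classes, so the sums describe the classes and do not check the names. Flt1, a VEGF receptor, carried 20.6, 5.31 and 153 CPM of the second sum, and the other 10 markers summed to 115, 885 and 24.9 CPM, which turns the order of ExE-like and embryonic nuclei. Among the EPC markers Tpbpa was at 0 in ExE-like nuclei and at 0.242 CPM in EPC-like nuclei, and Prl3d1, a giant cell hormone, was at 15.5 and 210 CPM. With 1 library there was no replicate and no test: 95% intervals are exact and cover counting error only, and fewer cells of a type and less RNA per cell cannot be told apart in the summed values.

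RNA of 5 of the 6 factors was at least 2-fold higher in ExE-like than in embryonic nuclei, where 9.47% of 16545 genes were. The exception was Tfap2a, and none of the 6 was at least 2-fold lower (23.8% of the genes were). All 6 were at least 2-fold higher in EPC-like than in embryonic nuclei (9.58% of 16200 genes), and none was at least 2-fold lower (26.4%). Nr0b1 passed narrowly, at 2.31-fold (1.66 to 3.15), and was at 1.99 with finer clusters (resolution 3), which ends its call, and at 9.54 with coarser ones (resolution 1). Between the trophoblast classes, Esrrb, Nr0b1 and Tead4 were at least 2-fold higher in ExE-like nuclei (6.25% of 12265 genes). Elf5 was shared by both classes, and Ets2 and Tfap2a had their higher level in EPC-like nuclei, Tfap2a by more than 2-fold (3.25% of the genes).

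Elf5 RNA was at 209 CPM (202 to 216) in ExE-like, 113 CPM (103 to 124) in EPC-like and 9.40 CPM (8.73 to 10.1) in embryonic nuclei. The ExE level was 22.2-fold (20.5 to 24.1) the embryonic one and 1.85-fold (1.68 to 2.04) the EPC one. Outside the trophoblast 7 classes, leaving out the 2 UMIs of parietal endoderm-like nuclei, lay between 8.68 CPM (7.77 to 9.67) in epiblast-like and 11.2 CPM (9.25 to 13.3) in anterior streak-like nuclei, and adjacent classes in that order did not differ beyond counting error. Across the range the difference was small, and epiblast-like nuclei were taken as reference for being lowest. The level over them was 1.28-fold (1.03 to 1.59) in anterior streak-like and 1.24-fold (1.04 to 1.47) in visceral endoderm-like nuclei. Without the nucleus with the most Elf5 UMIs of each class, the levels were 10.6 CPM in anterior streak-like and 10.4 in visceral endoderm-like nuclei. Epiblast-like nuclei were then at 8.58 CPM, and intervals for these folds were not computed. Single clusters reached higher, with 21.9 CPM (11.7 to 37.4) in 85 visceral endoderm-like nuclei. Unnamed clusters of 560 and 166 nuclei, whose lineage was not assigned, were at 30.8 CPM (21.7 to 42.5) and 49.9 CPM (38.2 to 64.1). The larger was shallow, with a median of 1777 UMIs, and the smaller had mitochondrial genes among its leading genes. Visceral endoderm transcripts were spread in a like way, with a list of 10 markers at 780, 778 and 717 CPM in ExE-like, EPC-like and embryonic nuclei. Whether the low Elf5 level outside the trophoblast was free RNA in the droplets was not tested.

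The files gave Elf5 starts at 2 ends of a range, and the peaks there differed. The RefSeq promoter windows (GRCm38.p6, 250 bases before to 50 after a start, plus strand) are shown because each lay wholly inside one of those peaks, the first at chr2:103411848-103412147 and the second at chr2:103423818-103424117. Capitals mark matches to the motifs searched.
Elf5 upstream start: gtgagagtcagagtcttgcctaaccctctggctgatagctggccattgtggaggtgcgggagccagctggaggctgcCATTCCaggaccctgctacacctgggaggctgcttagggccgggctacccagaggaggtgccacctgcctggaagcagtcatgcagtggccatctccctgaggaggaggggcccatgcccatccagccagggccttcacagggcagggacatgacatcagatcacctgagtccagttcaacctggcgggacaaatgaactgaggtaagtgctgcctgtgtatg
Elf5 downstream start: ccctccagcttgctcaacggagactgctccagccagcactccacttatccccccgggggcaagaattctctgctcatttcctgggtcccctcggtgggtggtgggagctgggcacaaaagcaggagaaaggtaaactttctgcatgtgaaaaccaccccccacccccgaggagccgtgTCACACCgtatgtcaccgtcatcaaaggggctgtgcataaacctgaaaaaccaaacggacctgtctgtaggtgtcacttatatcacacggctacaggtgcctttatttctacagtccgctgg

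The upstream window held 1 TEAD match (GGAATG, on the minus strand, 173 bases before the start) and the downstream window 1 T-box match (TCACACC, 72 bases before the start). Searched on both strands over 32851 RefSeq windows of the same length, GGAATG stood in 14.7% and TCACACC in 3.98%. The other motifs searched were the ESRR motif AAGGTCA, in 4.72% of windows, and the motif AGATAA of GATA factors, in 11.2%. For TFAP2 the letters GCCNNNGGC stood in 16.6%, for ETS factors CCGGAA in 14.9%, and for the TATA box TATAAA in 13.6%. Matches are described as letters only, with no overlap among those printed.

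The peak at the downstream start, chr2:103423628-103424357, was at 35.7 CPM in ExE-like, 30.2 in EPC-like and 2.35 in embryonic nuclei, 15.2-fold (12.7 to 18.3) higher in ExE-like than embryonic nuclei. The peak at the upstream start, chr2:103411239-103412172, was at 5.70, 10.8 and 2.0 CPM, a fold of 2.84 (2.05 to 3.90). It was lower in ExE-like than in EPC-like nuclei, at 0.526 of the EPC level (0.341 to 0.822). Both trophoblast classes thus had the downstream start far more open than embryonic nuclei, while the upstream start was more open in the EPC-like ones. Which start the RNA came from was not analysed here.

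Inside Elf5, the peak chr2:103435823-103436683 had the highest ExE level of the locus, 57.5 CPM against 42.2 in EPC-like and 2.81 in embryonic nuclei. The peak chr2:103425915-103426795, 14667 bp beyond the first start, had the largest fold, 51.2 (39.8 to 66.6), at 47.4 CPM in ExE-like, 14.0 in EPC-like and 0.925 in embryonic nuclei. Unlike the downstream start, that peak also separated the trophoblast classes, at 3.39-fold (2.53 to 4.63) higher in ExE-like nuclei. Summed over the 2 promoter peaks, Elf5 was 9.52-fold (8.21 to 11.0) higher in ExE-like than embryonic nuclei and 1.01-fold (0.834 to 1.23) the EPC level.

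Esrrb RNA had the largest ExE fold of the 6. It was at 179 CPM (173 to 185) in ExE-like, 19.3 CPM (15.3 to 24.1) in EPC-like and 3.87 CPM (3.44 to 4.33) in embryonic nuclei. The ExE level was 46.3-fold (41.1 to 52.3) the embryonic and 9.27-fold (7.42 to 11.7) the EPC level. With coarser clusters (resolution 1) the EPC-like class widened and the second fold was 2.43. Haemato-endothelial progenitor-like nuclei followed at 9.09 CPM, and the other named classes lay between 2.52 and 4.79 CPM. The unnamed clusters of 560 and 166 nuclei were at 21.6 CPM (14.1 to 31.7) and 17.2 CPM (10.6 to 26.3), near the EPC level.

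Accessibility around Esrrb did not follow its annotated first start. The peak there, chr12:86360937-86361644, was at 0.564 CPM in ExE-like, 0.752 in EPC-like and 3.25 in embryonic nuclei, so it was 5.76-fold (2.61 to 15.8) higher in embryonic nuclei. The peak at a second RefSeq start, chr12:86421140-86422055, was at 6.0, 3.46 and 14.0 CPM, 2.33-fold (1.81 to 3.05) higher in embryonic nuclei. The RefSeq window of that start, chr12:86421394-86421693 on the plus strand, lay wholly in the peak and held no match to the motifs searched. It is printed because it was less open where the RNA was higher.
Esrrb second start: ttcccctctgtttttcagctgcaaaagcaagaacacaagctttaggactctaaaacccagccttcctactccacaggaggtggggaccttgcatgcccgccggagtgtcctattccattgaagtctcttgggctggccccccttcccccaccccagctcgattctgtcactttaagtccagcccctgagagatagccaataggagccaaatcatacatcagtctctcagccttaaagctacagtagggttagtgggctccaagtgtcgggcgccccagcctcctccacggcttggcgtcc

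Higher ExE accessibility lay deep in the gene. The peak chr12:86465994-86466900, 105330 bp beyond the first start, was at 36.2 CPM in ExE-like, 15.2 in EPC-like and 0.558 in embryonic nuclei. Its fold of 64.9 (46.4 to 93.2) was the largest of the 144 peaks with at least 100 estimated fragments. The peak at the last start in the files, chr12:86469667-86470533, was at 19.8, 11.7 and 6.75 CPM, a fold of 2.93 (2.47 to 3.47). Nearby, chr12:86473317-86474135 ran the other way between the trophoblast classes, at 12.5 CPM in ExE-like and 28.0 CPM in EPC-like nuclei, where Esrrb RNA was lower (this peak was chosen after its values were seen).

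Nr0b1 RNA was at 104 CPM (99.6 to 109) in ExE-like, 11.1 CPM (8.13 to 14.8) in EPC-like and 4.80 CPM (4.33 to 5.32) in embryonic nuclei. The folds were 21.7 (19.4 to 24.3) over embryonic and 9.38 (7.01 to 12.9) over EPC-like nuclei, the second being 2.51 with coarser clusters. In the unnamed cluster of 166 nuclei Nr0b1 was at 29.4 CPM (20.6 to 40.8), and in that of 560 nuclei at 2.50 CPM (0.515 to 7.30). Its promoter did not differ in the same way: the peak chrX:86191713-86192251 was at 4.52, 2.56 and 4.13 CPM, and its fold of ExE over embryonic was 1.09 (0.819 to 1.44), an interval that includes equal levels. Only 3 peaks lay within 50 kb. The upstream one, chrX:86180889-86181784, at -10427 bp from the start, was at 9.29 CPM in ExE-like, 2.26 in EPC-like and 0.191 in embryonic nuclei, 48.6-fold (28.5 to 88.4) higher in ExE-like than embryonic nuclei.

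The RefSeq window of Nr0b1, chrX:86191525-86191824 on the plus strand, had 112 of its 300 bases in the promoter peak. It held a TATA match 32 bases before the start and a TFAP2 match from base 17 after it, both in capitals, and is shown as the promoter whose openness was alike while RNA was not.
Nr0b1: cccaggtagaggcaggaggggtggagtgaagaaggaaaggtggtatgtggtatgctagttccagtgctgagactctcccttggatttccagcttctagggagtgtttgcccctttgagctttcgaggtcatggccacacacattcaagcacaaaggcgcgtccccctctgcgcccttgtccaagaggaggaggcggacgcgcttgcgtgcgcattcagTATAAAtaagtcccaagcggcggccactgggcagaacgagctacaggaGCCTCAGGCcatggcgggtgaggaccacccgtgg

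Ets2 RNA was highest in EPC-like nuclei, at 107 CPM (97.0 to 117), against 77.1 CPM (73.1 to 81.3) in ExE-like and 16.2 CPM (15.3 to 17.1) in embryonic nuclei. The EPC level was 1.38-fold (1.24 to 1.54) the ExE level. One EPC-like nucleus held 35 of the 442 Ets2 UMIs, and the EPC level without it was 98.3 CPM. Haemato-endothelial progenitor-like nuclei followed at 34.5 CPM. In EPC-like nuclei 5 endothelial markers summed to 58.2 CPM, against 9.55 in ExE-like and 4.50 in embryonic nuclei. Cdh5 (33.8 CPM), Pecam1 (16.2) and Esam (8.21) made up the EPC sum, while Emcn and Cldn5 were at 0 there and at 0.169 CPM each in embryonic nuclei. Their part in the Ets2 value was not tested.

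The Ets2 promoter was open in all classes. Its peak, chr16:95701940-95702809, was at 40.5 CPM in ExE-like, 50.1 in EPC-like and 29.5 in embryonic nuclei, a fold of 1.37 (1.24 to 1.52) for ExE over embryonic. The peak chr16:95715990-95716814, 14327 bp beyond the start, was at 10.2, 11.1 and 0.505 CPM, a fold of 20.1 (13.7 to 30.3), and did not separate the trophoblast classes (0.913, 0.628 to 1.35). Just upstream of the start, chr16:95699668-95700583 was at 31.7 CPM in visceral endoderm-like nuclei and 0.770 in ExE-like nuclei, 41.2-fold (21.5 to 90.6) higher in the former, where Ets2 RNA was at 23.9 CPM (a peak chosen after its values were seen).

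The Ets2 window, chr16:95702157-95702456 on the plus strand, lay wholly in the promoter peak. With 71.7% G and C and 30 CpG, against medians of 52.7% and 7 over all windows, it is shown as the promoter open throughout the embryo, and it held no match to the motifs searched.
Ets2: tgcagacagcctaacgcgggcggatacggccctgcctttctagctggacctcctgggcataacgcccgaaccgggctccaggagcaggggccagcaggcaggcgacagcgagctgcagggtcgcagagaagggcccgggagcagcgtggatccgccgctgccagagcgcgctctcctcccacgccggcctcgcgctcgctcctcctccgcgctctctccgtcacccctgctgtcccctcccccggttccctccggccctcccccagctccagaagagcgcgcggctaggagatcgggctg

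Tead4 RNA was at 139 CPM (134 to 145) in ExE-like, 55.8 CPM (48.8 to 63.5) in EPC-like and 10.1 CPM (9.39 to 10.8) in embryonic nuclei. The folds for ExE were 13.8 (12.7 to 15) over embryonic and 2.49 (2.18 to 2.86) over EPC-like nuclei, the second being 1.32 with coarser clusters. Outside the trophoblast Tead4 was at 101 CPM (69.6 to 141) in the 26 parietal endoderm-like nuclei, 72.4 CPM in visceral endoderm-like and 65.1 CPM in haemato-endothelial progenitor-like nuclei. Unnamed clusters of 393 and 560 nuclei were at 78.7 CPM (72.3 to 85.5) and 45.0 CPM (33.8 to 58.7). Those of 474 and 166 nuclei were at 36.3 CPM (32.1 to 40.9) and 23.7 CPM (15.9 to 34.1). The ExE and parietal levels did not differ beyond counting error. Within the embryonic classes it ran from 4.26 CPM in epiblast-like to 24.2 CPM in mesoderm-like nuclei, so that against epiblast-like nuclei alone the ExE fold was 32.6.

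The Tead4 promoter peak, chr6:128300144-128301056, was at 48.3 CPM in ExE-like, 39.5 in EPC-like, 39.5 in visceral endoderm-like and 23.3 in embryonic nuclei, a fold of 2.08 (1.87 to 2.30) for ExE over embryonic. Inside the gene, chr6:128278920-128279732 was at 33.7 CPM in ExE-like, 30.1 in EPC-like, 4.45 in visceral endoderm-like and 1.15 in embryonic nuclei, 29.3-fold (23.1 to 37.6) higher in ExE-like than embryonic nuclei. Its neighbour chr6:128277557-128278347, chosen after its values were seen, was at 35.9 CPM in visceral endoderm-like nuclei against 0.667, 0.601 and 0.505 CPM in ExE-like, EPC-like and embryonic nuclei, a visceral endoderm fold over ExE of 53.8 (28.1 to 118). These 2 adjacent peaks, 21487 and 22861 bp beyond the first start, were thus open in different classes that both had Tead4 RNA. Upstream, chr6:128342417-128343351, inside Tulp3, separated the trophoblast classes at 12.9 CPM in ExE-like and 0.601 CPM in EPC-like nuclei and was also chosen after its values were seen.

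**Figure D1:**
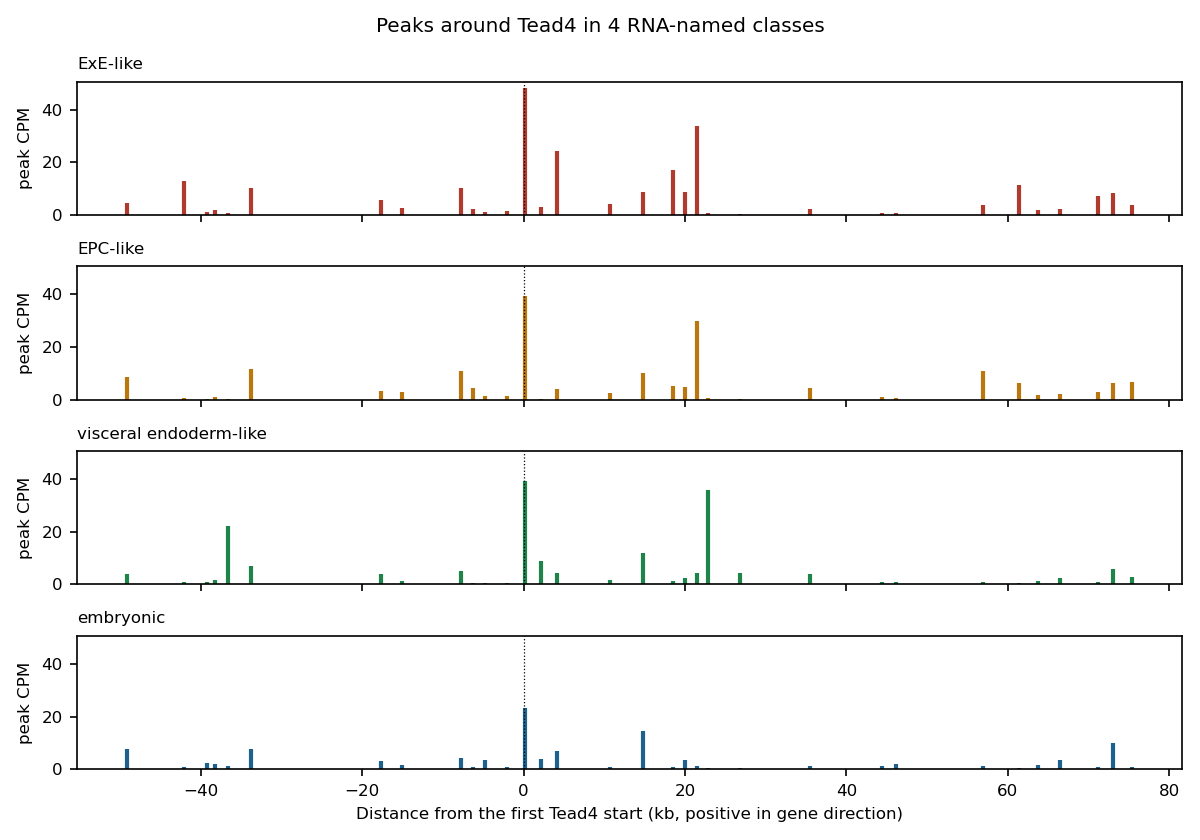
Level of each peak around Tead4 in peak CPM (vertical axes, from 0) against the distance of its centre from the first Tead4 start, in 4 classes named from RNA. The promoter peak stood in every class, whereas the peak at 21487 bp stood in both trophoblast classes and the peak at 22861 bp in visceral endoderm-like nuclei.

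Tfap2a RNA was scarce. It was at 2.01 CPM (1.41 to 2.78) in ExE-like, 7.0 CPM (4.69 to 10.1) in EPC-like and 2.04 CPM (1.74 to 2.39) in embryonic nuclei, from 36, 29 and 157 UMIs. The ExE to embryonic fold was 0.984 (0.665 to 1.42). In EPC-like nuclei, 7 of the 29 UMIs came from 1 nucleus, and the level was 5.31 CPM without it. Gm26688 overlaps Tfap2a, and whether counting used strand was not given in the sources used here, so their reads may not be separable.

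Chromatin at Tfap2a was less open in the trophoblast. Its 3 promoter peaks summed to 11.9 CPM in ExE-like, 8.72 in EPC-like and 43.4 in embryonic nuclei, so embryonic nuclei were 3.66-fold (3.06 to 4.41) higher than ExE-like and 4.97-fold (3.50 to 7.33) higher than EPC-like ones. Of 25 peaks tested, 19 were at least 2-fold lower and 1 at least 2-fold higher in ExE-like than embryonic nuclei, against 40.4% and 13.2% of all 181770 peaks. The exception among the strong peaks was chr13:40722581-40723491, at the promoter of Gm47061, with 49.1, 54.3 and 43.3 CPM. The RNA of Tfap2a did not show that promoter order. Its ExE over embryonic interval included equal levels, and its EPC excess rested on 29 UMIs. In nuclei thinned to 5000 UMIs, the EPC share with a Tfap2a UMI was 2.11% (0.779 to 4.54). Its interval overlapped that of embryonic nuclei, 1.04% (0.811 to 1.32).

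Across members, summed peaks within 50 kb were at least 2-fold higher in ExE-like than embryonic nuclei for Elf5, Esrrb, Nr0b1 and Tead4 (4 of 6, against 4.95% of 29903 genes). Promoter peaks were so for Elf5, Esrrb and Tead4 (3 of 6, against 4.13% of 20884 genes). The Esrrb sum covered the peaks at its first and last starts. Of its 397 ExE counts, 386 lay at the last start, in a peak that held no RefSeq start. The peak at the second RefSeq start, at 6.0 CPM in ExE-like and 14.0 CPM in embryonic nuclei, was not in the sum. The promoter folds of Esrrb, 2.04 (1.74 to 2.38), and Tead4 stood near the limit: Esrrb was at 1.98 with 3000 variable genes and 1.96 against epiblast-like nuclei alone, and Tead4 at 1.87 with promoters of 2000 bp to each side, each leaving 2 of 6. Elf5 had the highest 50 kb fold at 6.72 (6.37 to 7.09), followed by Nr0b1 at 2.41, Esrrb at 2.39, Tead4 at 2.18 and Ets2 at 1.70. Tfap2a, at 0.499 (0.471 to 0.528), sat at the limit for 2-fold lower within 50 kb (15.6% of genes), and alternatives from 0.395 to 0.558 ended that call in 8 of 10 cases. At promoters it was the only member at least 2-fold lower (20.3% of genes). With peaks within 10 kb alone the ExE fold of Esrrb was 4.94. In EPC-like over embryonic nuclei, Elf5 (4.77) and Ets2 (2.01) passed 2-fold within 50 kb (2.50% of 29836 genes) and Elf5 alone at promoters (4.53% of 20737 genes). With peaks within 10 kb Ets2 was at 1.37 (1.17 to 1.58) and lost its call, while Esrrb moved from 1.20 to 2.75 (2.39 to 3.15) and gained one. Tfap2a alone was at least 2-fold lower at promoters (22.5%) and no member was so within 50 kb (19.1%), although Tfap2a, at 0.519, was at 0.383 without peaks at other promoters. Between ExE-like and EPC-like nuclei, Nr0b1 alone passed within 50 kb, at 2.41 (1.67 to 3.58; 5.34% of 27231 genes), and none did at promoters (3.06% of 16275 genes). Esrrb fell just short within 50 kb, at 1.98 (1.81 to 2.18), an interval that includes 2-fold and overlaps that of Nr0b1. No member was at least 2-fold lower within 50 kb (0.426%) or at promoters (1.27%). In ExE-like over embryonic nuclei the RNA fold exceeded both summed accessibility folds for each of the 6 members. RNA and peaks were summed over differently classed nuclei, and the sums joined peaks of unlike fold. The largest single-peak fold of each member, picked as the highest, was above its RNA fold. These were 51.2 for Elf5, 64.9 for Esrrb, 20.1 for Ets2, 48.6 for Nr0b1, 29.3 for Tead4 and 2.04 for Tfap2a.

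**Figure D2:**
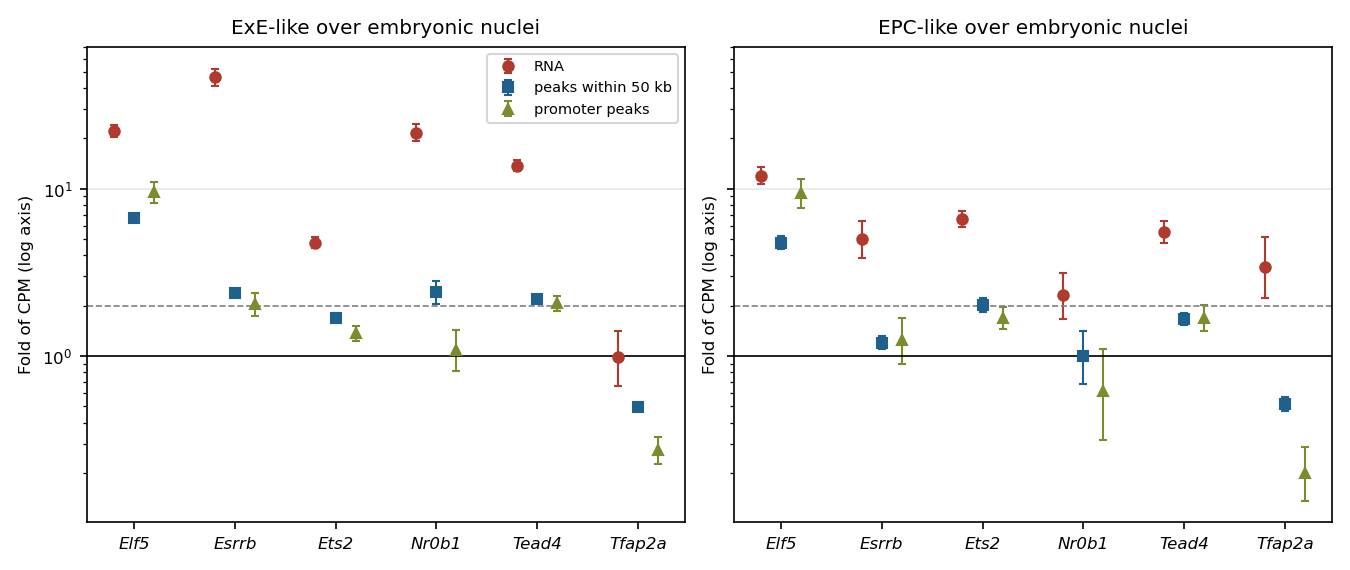
Fold of ExE-like (left) and EPC-like (right) over embryonic nuclei on a log axis for RNA, for peaks within 50 kb and for promoter peaks, with exact 95% intervals; the dashed line marks 2-fold. For Nr0b1 the RNA fold was 21.7 and the promoter fold 1.09, and for Tfap2a the accessibility folds lay below 1.

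Of the 144 peaks tested around the members, 49 (34.0%) were at least 2-fold higher and 34 (23.6%) at least 2-fold lower in ExE-like than embryonic nuclei, against 13.2% and 40.4% of 181770 peaks. By member, the higher peaks numbered 13 of 21 for Elf5, 16 of 47 for Esrrb, 5 of 16 for Ets2, 1 of 3 for Nr0b1, 13 of 32 for Tead4 and 1 of 25 for Tfap2a. Of these 49 peaks, 34 lay inside the member's own gene, as did 86 of the 144. In EPC-like over embryonic nuclei 42 of the 144 were higher and 47 lower (13.1% and 42.0% of all peaks), and in ExE-like over EPC-like nuclei 46 were higher and 11 lower (23.8% and 16.3%). Peaks around one gene share its sequence neighbourhood and are not independent.

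The peaks with the lowest ExE to embryonic ratio differed in size between members. For Elf5, chr2:103446972-103447859 was at 0.872 CPM in ExE-like and 1.64 CPM in embryonic nuclei, an embryonic excess of 1.88-fold (0.959 to 4.23). For Ets2, chr16:95742333-95743183 was 3.19-fold (1.42 to 8.88) higher in embryonic nuclei, and for Tead4, chr6:128305104-128305956 was 2.94-fold (1.65 to 5.76) higher. Upstream of Esrrb, chr12:86326986-86327771 was at 1.16 CPM in embryonic and 0.0513 CPM in ExE-like nuclei, a ratio of 22.7 with an interval from 3.95 to 906. At Tfap2a, chr13:40725164-40726098 was 7.58-fold (2.92 to 28.1) higher in embryonic nuclei, and the one peak higher in ExE-like nuclei, chr13:40756185-40756919, was at 1.95 against 0.956 CPM.

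**Figure D3:**
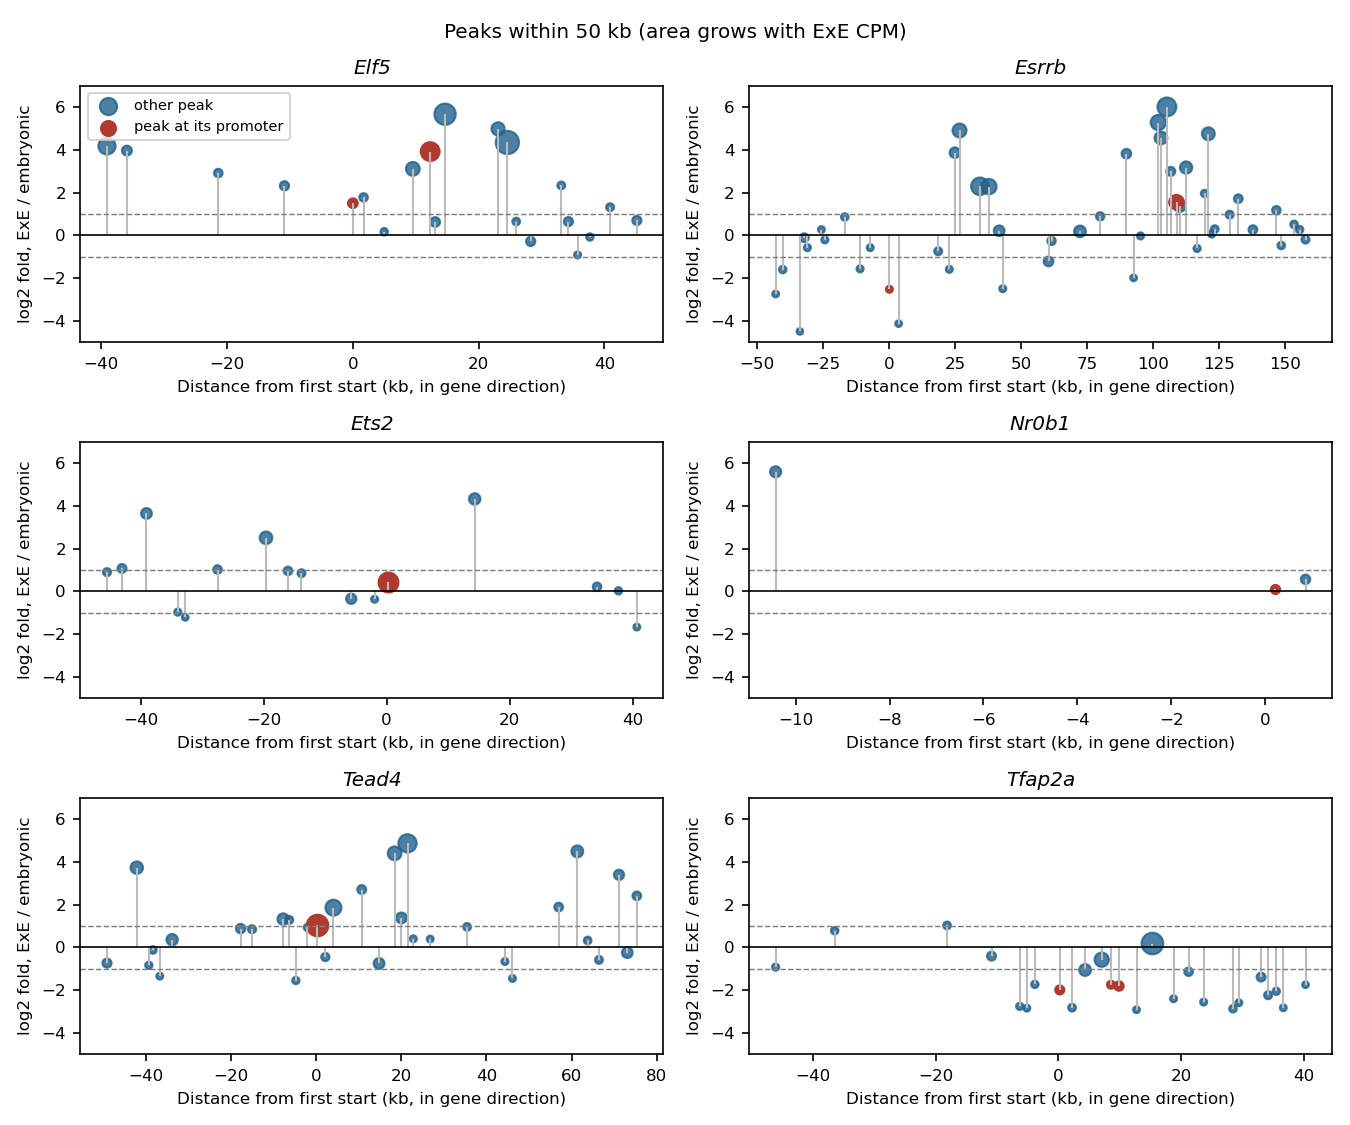
log2 fold of ExE-like over embryonic nuclei for each tested peak (vertical axes) against distance from the first start in the direction of the gene, with peaks at the member's promoter in red and point area growing with ExE CPM; dashed lines mark 2-fold. The highest points for Esrrb lay 105330 bp from its first start, and most Tfap2a points lay below 0.

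Within single nuclei thinned to 5000 UMIs each (120 ExE-like, 13 EPC-like and 620 embryonic nuclei were shallower and left out), Elf5 RNA was detected in 58.5% (55.6 to 61.3) of ExE-like, 43.7% (37.8 to 49.6) of EPC-like and 4.78% of embryonic nuclei. Esrrb was detected in 52.6%, 5.63% and 1.78%, Nr0b1 in 35.2%, 3.52% and 2.28%, and Tead4 in 44.2%, 19.0% and 4.26%. Ets2 was detected in 31.3%, 35.2% and 7.71%, and Tfap2a in 0.673%, 2.11% and 1.04%. Unthinned, Elf5 was detected in 80.4%, 65.7% and 9.28%. In visceral endoderm-like nuclei, a class that should lack Elf5 and Esrrb, the thinned shares were 5.35% and 1.34%, close to the embryonic ones, and the EPC share of Nr0b1 was near its visceral endoderm share of 2.54%. Tead4 was detected in 46.2% (26.6 to 66.6) of the 26 parietal endoderm-like nuclei. At least 3 of the 6 were detected in the same nucleus in 40.6% (37.8 to 43.5) of ExE-like, 5.63% of EPC-like and 0.092% of embryonic nuclei. The share from independent detection of each factor was not worked out, so co-expression beyond it was not tested.

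**Figure D4:**
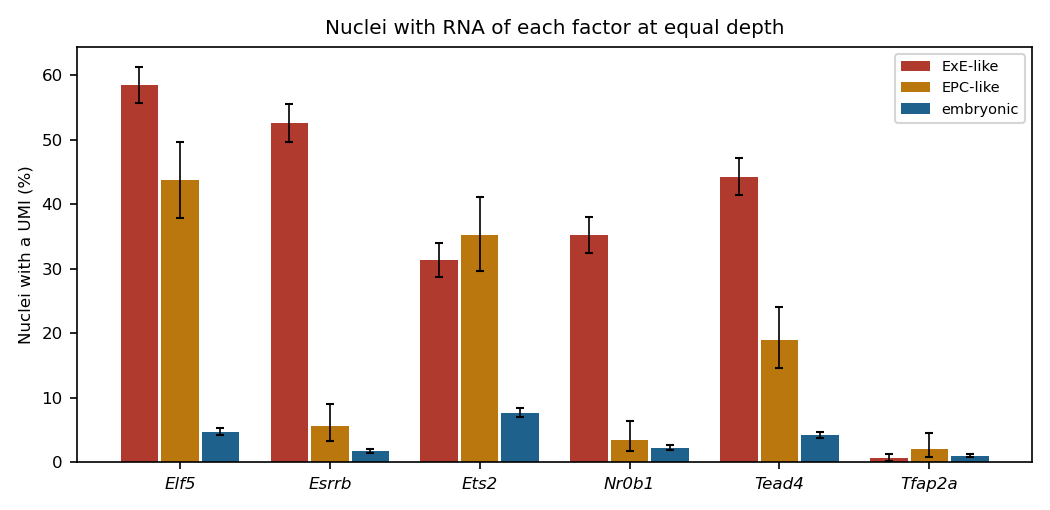
Share of nuclei with at least 1 UMI of each factor after thinning to 5000 UMIs (vertical axis in percent, from 0), with exact 95% binomial intervals. Of the 3 classes drawn, ExE-like bars were highest for Elf5, Esrrb, Nr0b1 and Tead4, and the ExE-like and EPC-like intervals overlapped for Ets2.

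The ExE-like class was not uniform. It joined 3 accessibility clusters of 542, 487 and 280 nuclei. Esrrb was at 158, 216 and 129 CPM in them and Nr0b1 at 84.6, 132 and 77.4 CPM, so that the second cluster was 1.36-fold (1.26 to 1.47) and 1.56-fold (1.41 to 1.73) above the first. Elf5 was at 205, 225 and 172 CPM and Tead4 at 142, 147 and 110 CPM. Ets2, at 80.7, 75.4 and 72.7 CPM, did not differ beyond counting error between the second cluster and either of the others. The third cluster had the giant cell genes Prl3d1 and Prl3d2 and 1 ExE marker, Sox21, among its 10 leading genes, and 58.2% of it was ExE-like and 22.9% EPC-like by RNA. Without it the ExE over embryonic folds were 22.9 for Elf5 and 48.7 for Esrrb.

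Among genes known to work with the members, 10 of 16 trophoblast stem cell partners were at least 2-fold higher and 1 lower in ExE-like than embryonic nuclei, against 9.47% and 23.8% of all genes. Their median log2 fold was 1.25, against -0.11 over all 16545 genes, but 4 of the 16 are also ExE markers that named the classes. EPC-like over embryonic nuclei were much alike, with 9 of the 16 higher and 2 lower (median 1.26, beside 9.58% and 26.4% of genes). The T-box factor Eomes was at 163 CPM in ExE-like and 175 CPM in embryonic nuclei, a fold of 0.932, whereas Bmp4, the ExE signal to the epiblast, was 19.5-fold (18.0 to 21.2) higher and Gata3, a trophoblast factor, 11.0-fold (9.82 to 12.4) higher. Pcsk6, a proprotein convertase that processes Nodal, was 10.4-fold higher. The 4 partners that are also markers were Sox21 at 28.7-fold, Tfap2c at 14.6-fold, Cdx2 at 12.9-fold and Bmp8b at 8.05-fold.

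Of the 14 Hippo genes around Tead4, 1 was higher and 1 lower, against 9.47% and 23.8% of all genes, with a median of -0.08. In the FGF and ERK list, 2 of 17 were higher and 4 lower, near the same shares of 9.47% and 23.8%, with a median of -0.05. Fgf4 itself was at 0.447 CPM in ExE-like and 4.87 CPM in embryonic nuclei. Of 10 naive pluripotency genes tested, 5 were higher and 4 lower (median 0.32, beside 9.47% and 23.8% of all genes): Zfp42 (Rex1) was 21.6-fold, Tfcp2l1 11.6-fold, Klf5 9.70-fold and Fbxo15 9.26-fold higher in ExE-like nuclei, while Nanog was at 5.86 against 41.4 CPM. Of 9 differentiating trophoblast genes tested, 5 were higher and 1 lower (median 1.94, beside 9.47% and 23.8% of all genes), and 11 of the 16 listed are EPC markers that named the classes. Rhox9, Ascl2, Rhox6, Prl3d1 and Hand1 were 11.6-, 7.39-, 7.32-, 4.75- and 4.15-fold higher in ExE-like nuclei, and Flt1 was at 20.6 against 153 CPM. Against EPC-like nuclei, 1 of 8 tested was higher and 4 lower in ExE-like nuclei (median -1.17, beside 6.25% and 3.25% of genes).

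Of 12 paralogs of the members tested, 6 were higher and 3 lower in ExE-like than embryonic nuclei, with a median of 0.64, beside 9.47% and 23.8% of all genes. Between the trophoblast classes, 0 of 10 were higher in ExE-like and 3 in EPC-like nuclei (6.25% and 3.25% of genes): Elf3 at 26 and 157 CPM, Tfap2c at 155 and 531 CPM, and Elf4 at 28.6 and 69.8 CPM. Tfap2c, the AP-2 factor of trophoblast and also an ExE marker here, was at 10.6 CPM in embryonic nuclei, an ExE fold of 14.6 (13.5 to 15.8), beside the 0.984 of Tfap2a. The ETS factors Elf4 and Elf3 were 9.94-fold and 4.09-fold higher, while Elf1 and Elf2 were at 1.21- and 0.948-fold, Ets1 was at 3.30 against 6.85 CPM and Ehf at 0.112 against 1.15 CPM. Among TEAD genes, Tead3 was 4.94-fold, Tead1 2.02-fold and Tead2 0.700-fold the embryonic level. Esrrg was at 1.17 against 15.8 CPM, opposite to Esrrb, and Esrra was 2.30-fold higher. The other paralogs, Nr0b2, Tfap2b, Tfap2d and Tfap2e, had at most 3 UMIs in ExE-like nuclei.

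Across 34 accessibility clusters of this library, Elf5 and Esrrb had the highest likeness of any pair of members (Pearson r = 0.924 of log2(CPM + 1)), and Esrrb and Nr0b1 followed at 0.890. Tead4 correlated with these at 0.519 or below, and Tfap2a with none above 0.239. The genes most like each member among 9757 were Wnt7b, Dppa4 and Htra1 for Elf5, Dppa4, Gm1673 and Gsto1 for Esrrb, Slc25a5, Nat8l and Gsto1 for Nr0b1, Mybl2, Fpgs and Dcun1d5 for Ets2, Pwwp2b, Peg10 and Capn2 for Tead4, and Noc3l, Ncapg and Rrp8 for Tfap2a. For Elf5 and Wnt7b, a Wnt ligand and ExE marker, r was 0.975, and for Tfap2a and Noc3l it was 0.647. Only 3 ExE-like clusters and 1 EPC-like cluster stood among the 34, and Elf5 and Esrrb RNA was low in most of the others. Their r therefore cannot be told apart from the trophoblast contrast given above. The clusters also share 1 library and its depth, so these correlations are descriptions.

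Genes whose starts lay within 50 kb of a member had few UMIs. Upstream of Elf5, A930006I01Rik and BC016548 had 4 and 1 UMIs in ExE-like nuclei, yet their promoter peaks were 18.3-fold (14.6 to 22.9) and 7.58-fold (4.62 to 12.4) higher there than in embryonic nuclei. Gm44190, near Tead4, had 9 UMIs in ExE-like and 68 in embryonic nuclei and a promoter fold of 0.600. Near Tfap2a, Gm26688 had 11 and 44 UMIs, Gm47061 had 6 and 9, Gm9979 had 0 and 1, and Gm47067 and Gm48107 had none.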

How the data were processed

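The members and lists were chosen with earlier results of these data known, and the rule that names clusters was set after the data were seen. The authors deposited whole-number counts, not normalized, of UMIs per gene and of reads per peak, made with Cell Ranger ARC 2.0.0 on mm10, per the submitters' processing notes. Settings for peak calling and barcode filters: not given in the sources used here. Kept barcodes had 1000 or more UMIs, 500 or more genes, 1000 or more peak counts and no more than 20% of UMIs from mitochondrial genes, and 1154 doublet calls (7.52%) by Scrublet in scanpy 1.11.5 were removed. RNA (2000 variable genes) and accessibility were each clustered on 30 components at resolution 2. A cluster of either assay took its name from the RNA of marker lists holding no member. The named classes left out 1593 nuclei by accessibility and 1966 by RNA. Counts were summed per class and scaled to CPM with exact intervals (scipy 1.17.1). Because 86.4% of nonzero peak values were even, peak intervals used estimated fragments. Folds counted genes with at least 50 UMIs. A promoter covered 1000 bp before and 100 bp after each start, with strand inferred from RefSeq. Promoter sequences came from RefSeq (GRCm38.p6), where 5 of 6 members matched, and motifs were chosen after the data were seen. For peaks, those at promoters and those with the highest ExE level or the largest fold either way were named, and others are said to be chosen afterwards. In lists, paralogs and genes at least 4-fold apart were named, with Eomes added afterwards. The fold code was tested on simulated data.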

Additional observations from a re-analysis of the deposited data

How the results depend on the processing

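With 1 library per assay the intervals cover counting error only, and variation between embryos and libraries was not measured. The 2 assays were paired by nucleus, but no test paired by embryo or library was possible. Each assay had 1 library and no barcode could be traced to an embryo. Of the counts of members at least 2-fold higher, 65 alternative values stayed within 1.5 times the count reported and 7 did not, and none reversed. EPC over embryonic within 50 kb was 1 member, not 2, at resolution 3 and at the stricter depth of 2000 UMIs and 2000 peak counts. ExE over EPC within 50 kb was 2, not 1, with 20 components and in nuclei named alike in both assays. ExE over EPC at promoters was 1, not 0, at the stricter depth, with 20 components and with promoters of 2000 bp to each side. The cause was not tested. Counts that moved by 1 member inside that range were ExE over EPC RNA (2, resolution 1), EPC over embryonic RNA (5, resolution 3) and ExE over embryonic promoters (2, in 3 alternatives). Among single folds, 362 stayed within their interval and 58 moved; at resolution 1 the EPC over embryonic RNA folds were 20.7 for Esrrb and 9.54 for Nr0b1, and against epiblast-like nuclei alone the Tead4 RNA folds were 32.6 for ExE and 13.1 for EPC. Peaks within 10 kb gave an Esrrb fold of 4.94 for ExE over embryonic. Leaving out the ExE cluster with an EPC marker, or the nucleus with the most UMIs of each member, both chosen after seeing the data, kept the RNA counts at 5, 6 and 3. EPC accessibility at resolution 1, with doublets kept and with 3000 variable genes, and EPC RNA at the stricter depth, gave no value because no cluster took that name.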
